A study of Mus musculus with 6 samples.

Results

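Genes of endoplasmic reticulum (ER) stress and the integrated stress response were followed in livers of mice exposed to DEHP, di(2-ethylhexyl) phthalate, a plasticizer, against livers of mice without exposure. The members were 30 genes chosen by name: 15 ER chaperones, folding enzymes and ER-associated degradation (ERAD) genes, 5 stress sensors and transcription factors, and 10 targets of the transcription factor ATF4. Of the 41096 named rows of the deposited gene count table, 29 carried a member's name. Phgdh had no row under its symbol, and a protein-coding row described as Phgdh held at most 5 counts in any library. Of the 29, 28 passed the filter on low counts and were tested, and Psat1 did not. There were 3 libraries of polyadenylated RNA from DEHP-exposed livers and 3 from control livers. The series' design text speaks of bisulfite sequencing of HepG2, a human liver cancer cell line, so tissue and groups were taken from the sample labels. The exposed columns carry the word High, but the sources used here give no dose, route, duration, strain, age or sex. The labels do not say that each library came from a separate mouse, so p-values measure the spread between these libraries.

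Secreted and membrane proteins fold in the ER with the help of chaperones such as BiP. When unfolded proteins accumulate there, the membrane sensors IRE1, PERK and ATF6 start the unfolded protein response. ATF6 and the IRE1-spliced factor XBP1 raise chaperone and ERAD genes, while PERK, like the other kinases of eIF2alpha, favours translation of ATF4, which raises genes of amino acid supply, CHOP and feedback inhibitors. Hepatocytes secrete most plasma proteins, and their chaperone genes are known to move with feeding as well as with stress. The comparison set these branches beside each other in exposed and control livers.

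The promoters of the members differ in the response elements they hold, and the sequences below show the elements of both branches. Promoters of 27 members were found in the RefSeq promoter table (GRCm38.p6), each running from 250 bases before to 50 bases after the start site, with none for Atf6, Hyou1 and Manf. The ER stress response element, CCAAT and CCACG separated by 9 bases on either strand, lay in 6 of 13 ER chaperone, folding and ERAD promoters, in 0 of 10 ATF4 target promoters and in 0 of 4 sensor and factor promoters. It lay in 0.137% of all 27025 genes of that table. The 6 genes were Calr, Creld2, Dnajc3, Hsp90b1, Hspa5 and Pdia6. A second form, ATTGG and CCACG separated by 1 base, lay in Dnajb11 and Herpud1 and in 0.0444% of all genes. The amino acid response element TGATGNAA lay in Asns, Chac1 and Trib3 of the 10 ATF4 targets, in Herpud1, and in 4.51% of all genes. The unfolded protein response element TGACGTGG lay in 0 members and in 0.714% of all genes. Creld2 is shown for the lowest fold change among members, Hspa5 as the gene of BiP, Dnajc3 for an element with a fold change of the other sign, Herpud1 for holding elements of both kinds, and Chac1 as an ATF4 target. Capitals mark the paired letters of the ER stress response element, the whole second form in Herpud1, and the amino acid response element, which is on the minus strand of the window in Herpud1 and Chac1. In Creld2 the ER stress response element is on the minus strand too, so that it reads CGTGG then ATTGG, and it runs from base 125 to 143 of the window. In Hspa5 it runs from base 186 to 204. A match describes these letters and does not show that a factor binds. The windows are chr15:88819396-88819695 on the plus strand for Creld2, chr2:34771840-34772139 on the plus strand for Hspa5 and chr14:118937682-118937981 on the plus strand for Dnajc3. Those of Herpud1 and Chac1 are chr8:94386179-94386478 on the plus strand and chr2:119350992-119351291 on the plus strand.
Creld2: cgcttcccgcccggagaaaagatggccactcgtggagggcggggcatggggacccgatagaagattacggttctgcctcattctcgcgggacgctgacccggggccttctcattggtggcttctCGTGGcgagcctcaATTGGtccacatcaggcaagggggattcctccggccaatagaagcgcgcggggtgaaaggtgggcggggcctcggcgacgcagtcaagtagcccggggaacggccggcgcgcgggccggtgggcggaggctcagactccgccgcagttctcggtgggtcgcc
Hspa5: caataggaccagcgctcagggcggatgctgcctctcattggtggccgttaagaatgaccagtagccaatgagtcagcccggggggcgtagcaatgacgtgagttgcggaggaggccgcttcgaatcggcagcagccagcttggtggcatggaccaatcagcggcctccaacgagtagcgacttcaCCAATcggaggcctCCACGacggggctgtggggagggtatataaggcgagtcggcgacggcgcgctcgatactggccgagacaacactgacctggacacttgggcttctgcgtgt
Dnajc3: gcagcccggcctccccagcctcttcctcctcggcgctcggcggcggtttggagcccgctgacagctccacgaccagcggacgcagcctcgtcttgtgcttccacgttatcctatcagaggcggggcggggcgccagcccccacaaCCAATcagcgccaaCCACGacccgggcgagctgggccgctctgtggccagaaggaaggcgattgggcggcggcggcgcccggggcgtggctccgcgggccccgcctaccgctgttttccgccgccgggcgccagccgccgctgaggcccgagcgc
Herpud1: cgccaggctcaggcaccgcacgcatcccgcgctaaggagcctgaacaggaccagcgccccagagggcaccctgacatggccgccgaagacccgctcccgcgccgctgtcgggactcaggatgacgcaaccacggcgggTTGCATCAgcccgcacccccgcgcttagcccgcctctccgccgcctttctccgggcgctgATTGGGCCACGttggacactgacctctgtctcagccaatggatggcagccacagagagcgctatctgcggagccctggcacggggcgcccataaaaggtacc
Chac1: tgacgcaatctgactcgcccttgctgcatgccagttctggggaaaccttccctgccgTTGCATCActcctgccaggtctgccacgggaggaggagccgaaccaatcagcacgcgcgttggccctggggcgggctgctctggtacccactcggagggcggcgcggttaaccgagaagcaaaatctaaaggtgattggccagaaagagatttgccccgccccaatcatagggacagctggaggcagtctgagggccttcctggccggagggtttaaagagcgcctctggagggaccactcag

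Total counts ran from 10410098 to 12405044 in DEHP libraries and from 12001969 to 14229803 in control libraries. Counts were scaled by library total (CPM) with TMM factors, and edgeR's quasi-likelihood test was run over 12468 genes with Benjamini-Hochberg adjustment. Hepatocyte markers, 9 of 12 with a row, summed to 105928 to 138359.7 CPM in DEHP livers and 120917 to 163462 CPM in control livers. The sums were lowest in DEHP replicate 3 and highest in control replicate 3. Alb made up most of each, with 64373 CPM in the first of these libraries and 108084 CPM in the second. Of 9 pancreatic acinar markers with a row, 6 were at 0 in all 6 libraries, Prss2, Cpa1 and Pnlip among them, and the list summed to 11.7 to 18 CPM in any library. Interferon-stimulated genes split the controls. They summed to 499.5 to 578 CPM in DEHP livers, and to 5034, 4042 and 542 CPM in control replicates 1 to 3.

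No member passed the threshold of an adjusted p of 0.05 (edgeR, 0 of 28 tested), where 0.0722% of all genes did, 0.0561% higher and 0.016% lower. With an unadjusted p under 0.05, 6 members had lower values in DEHP livers and 0 had higher values, against 6.97% and 6.11% of all genes. Without control replicate 3 the count of members was 1, and without DEHP replicate 3 it was 2. The shares of all genes belong to the fit with all libraries. The 6 members in that fit were Creld2, Pdia4, Hyou1, Manf, Sdf2l1 and Atf5, 5 of them from the ER chaperone, folding and ERAD list. DESeq2 placed Creld2 past the threshold (adjusted p = 0.00806), limma-voom placed 0 members there, and edgeR with no low-count filter placed 5, Creld2, Sdf2l1, Hyou1, Manf and Atf5, all lower. The DEHP libraries lay wholly below the controls for 6 of 28 members and wholly above for 1, Chac1. Over all genes those shares were 8.57% and 9.17%.

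**Figure D1:**
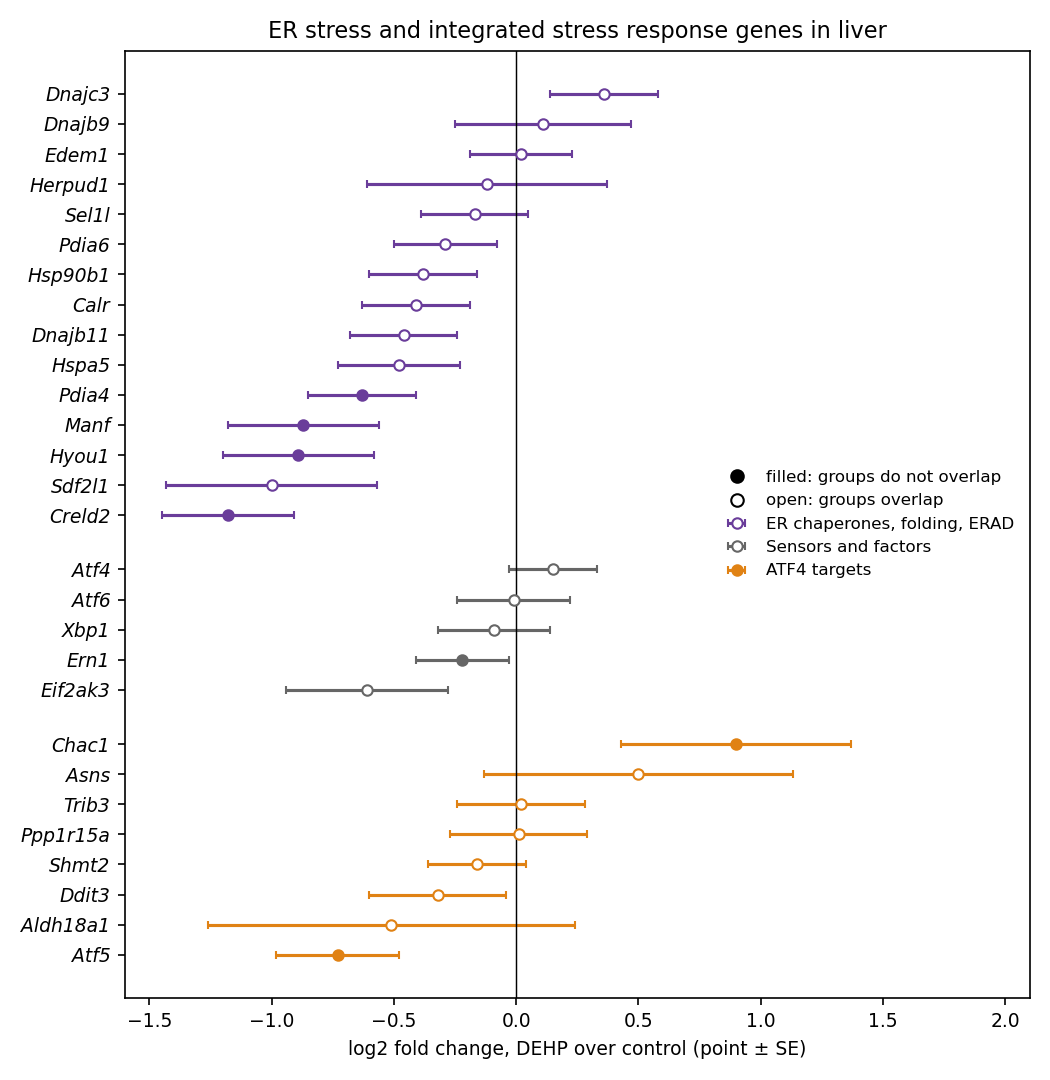
Log2 fold change of DEHP over control livers for the 28 tested members, with the standard error from the edgeR fit, grouped by role (filled points mark genes whose 3 DEHP and 3 control libraries do not overlap). Of 15 ER chaperone, folding and ERAD genes, 12 lie left of 0, from -1.18 for Creld2 to 0.36 for Dnajc3, while 4 of 8 ATF4 targets lie on each side.

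Creld2, an ER protein with disulfide isomerase activity that is induced by ER stress, lay farthest from 0 on the lower side. Creld2 had 34.6, 38.0 and 21.7 CPM in DEHP livers, against 61.3, 54.2 and 99.0 CPM in control livers. Every DEHP library lay below every control, and control replicate 3 stood above the other two. Its log2 fold change was -1.18 ± 0.27 (SE, edgeR unadjusted p = 0.000742, adjusted p = 0.143), and over the alternatives its adjusted p ran from 5.99e-05 to 0.437. Creld2 ranked 62nd of all genes by p.

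Sdf2l1, a partner of the BiP co-chaperone ERdj3, had 25.1, 26.8 and 13.0 CPM in DEHP livers, against 47.6, 20.1 and 62.6 CPM in control livers. Control replicate 2 lay among the DEHP libraries, so the groups overlapped, and the log2 fold change was -1.0 ± 0.43 (edgeR adjusted p = 0.378). Hyou1, a nucleotide exchange factor for BiP, had 99.7, 82.3 and 50.5 CPM in DEHP livers, against 114, 106 and 209 CPM in control livers. The groups did not overlap, yet DEHP replicate 1 and control replicate 2 were close, and the log2 fold change was -0.89 ± 0.31 (edgeR adjusted p = 0.290). Manf, a secreted trophic factor that also binds BiP, had 86.2, 77.9 and 49.6 CPM in DEHP livers, against 101, 89.9 and 199 CPM in control livers. As with Hyou1, the gap between the groups was narrow and control replicate 3 stood well above the other controls, with a log2 fold change of -0.87 ± 0.31 (edgeR adjusted p = 0.307). Without control replicate 3, Hyou1 had -0.48, Manf -0.40 and Sdf2l1 -0.63. The Manf row spans the rows of Rbm15b on the same strand and Vprbp on the other, so its counts are uncertain. Pdia4, a protein disulfide isomerase, had 110.3, 134 and 108 CPM in DEHP livers, against 159.7, 149 and 237 CPM in control livers. Here too every DEHP library lay below every control, with a log2 fold change of -0.63 ± 0.22 (edgeR adjusted p = 0.264), or -0.37 without control replicate 3.

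**Figure D2:**
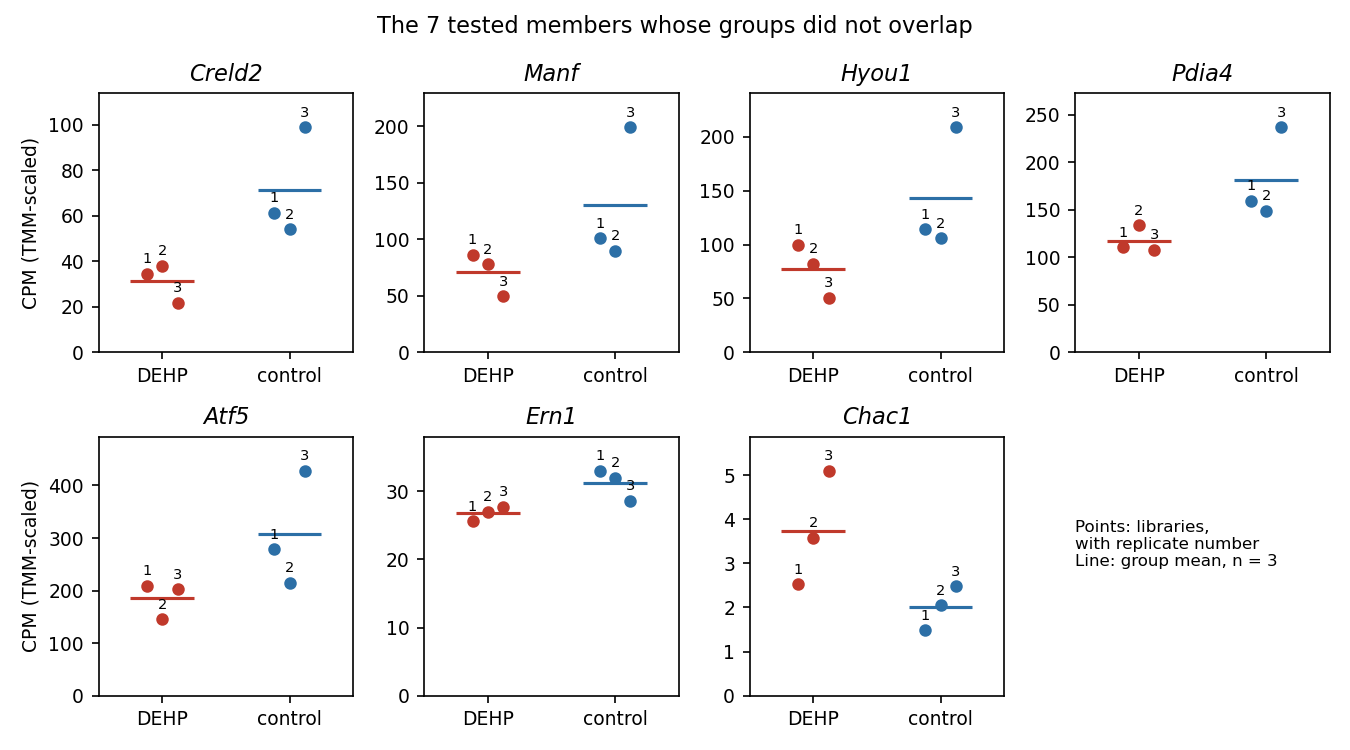
Library-scaled counts (CPM, linear axis from 0) of the 7 tested members whose groups did not overlap, with each library as a numbered point and the group mean as a line (n = 3). Control replicate 3 is the highest library for Creld2, Manf, Hyou1, Pdia4 and Atf5, and Chac1 is the panel in which DEHP libraries lie above controls.

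The more abundant chaperones Hspa5, Hsp90b1 and Calr had log2 fold changes nearer to 0. Hspa5, which encodes BiP, had 529.5, 638 and 428 CPM in DEHP livers, against 582, 613 and 1035 CPM in control livers. Of its controls, replicate 3 alone lay above all 3 DEHP libraries, and its log2 fold change was -0.48 ± 0.25 (edgeR adjusted p = 0.422). Leaving out control replicate 3 took it to -0.14. Hsp90b1, the ER form of HSP90, had 524, 616 and 370.1 CPM in DEHP livers, against 762, 535 and 666 CPM in control livers. Calr, the lectin chaperone calreticulin, had 618, 825 and 577 CPM in DEHP livers, against 951, 696 and 1037 CPM in control livers. For both genes control replicate 2 lay among the DEHP libraries, and the log2 fold changes were -0.38 ± 0.22 and -0.41 ± 0.22 (edgeR adjusted p = 0.496 and 0.438). Dnajb11, which encodes ERdj3, had -0.46 ± 0.22 and Pdia6, another disulfide isomerase, -0.29 ± 0.21 on the same scale. Without control replicate 3, Calr and Dnajb11 each had -0.27 and Pdia6 -0.14, and without DEHP replicate 3 Hsp90b1 had -0.20.

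A few genes of the same list had values near 0 or above it. Dnajc3, a BiP co-chaperone that also inhibits PERK, had 189.9, 273 and 185 CPM in DEHP livers, against 134, 180.2 and 188 CPM in control livers. DEHP replicate 3 lay between control replicates 2 and 3, and the log2 fold change was 0.36 ± 0.22 (edgeR adjusted p = 0.495), or 0.17 without DEHP replicate 2. Dnajb9, which encodes the co-chaperone ERdj4, had 36.2, 44.2 and 37.4 CPM in DEHP livers, against 15.7, 45.6 and 48.2 CPM in control livers. The single low library was control replicate 1, and the log2 fold change of 0.11 ± 0.36 became -0.26 without it. Herpud1, a part of the ERAD ubiquitin ligase complex, had 746, 651 and 410.3 CPM in DEHP livers, against 284, 566 and 1109 CPM in control livers. Its controls spanned 3.9-fold, wider than the DEHP libraries at 1.82-fold, and its log2 fold change was -0.12 ± 0.49 (edgeR adjusted p = 0.947). Edem1, a lectin that hands misfolded glycoproteins to degradation, had 0.02 ± 0.21, and Sel1l, the adaptor of the same ligase, -0.17 ± 0.22.

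Of the 15 genes on the list 12 had negative log2 fold changes, with a median of -0.41, where 52.9% of all genes were negative and the median of all genes was -0.03. Its median deviation from each gene's mean over 6 libraries, on log2(CPM + 1), was -0.11, 0.09 and -0.48 in DEHP replicates 1 to 3, and 0.15, -0.03 and 0.52 in control replicates 1 to 3. DEHP replicate 2 thus lay between control replicates 1 and 2. Control replicate 3 was the highest library for 12 of the 15 genes, and DEHP replicate 3 the lowest for 11. Without control replicate 3 the median log2 fold change was -0.27, and without DEHP replicate 3 it was -0.31. Over 15 genes summed per length, TPM, a level scaled by gene length and library total, were 2150.4, 2340.5 and 1687 in DEHP livers, against 2235, 2353 and 3526 in control livers. Control replicates 1 and 2 differed from the first 2 DEHP libraries by less than the DEHP libraries did among themselves.

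**Figure D3:**
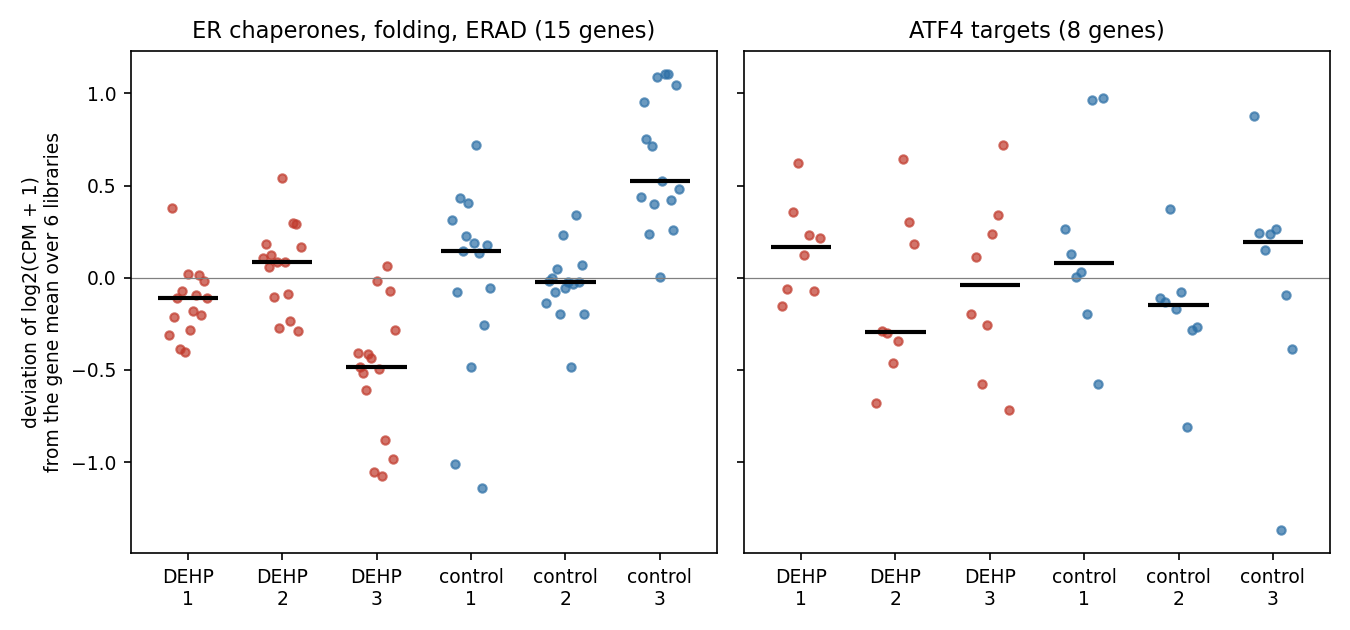
Deviation of each gene's log2(CPM + 1) from its own mean over 6 libraries, for 15 ER chaperone, folding and ERAD genes and 8 ATF4 targets, by library (points are genes, black lines medians). In the first list DEHP replicate 3 has the lowest median, -0.48, and control replicate 3 the highest, 0.52, while the ATF4 target medians stay between -0.29 and 0.19.

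Among the sensors and transcription factors, log2 fold changes ran from -0.61 for Eif2ak3 to 0.15 for Atf4. Ern1, which encodes IRE1, had 25.6, 27 and 27.7 CPM in DEHP livers, against 33, 32 and 28.6 CPM in control livers. The groups did not overlap, but the log2 fold change was only -0.22 ± 0.19 (edgeR adjusted p = 0.664). Eif2ak3, which encodes PERK, had 5.87, 9.68 and 5.95 CPM in DEHP livers, against 7.37, 13.3 and 12.2 CPM in control livers. DEHP replicate 2 lay above control replicate 1, and the log2 fold change was -0.61 ± 0.33 (edgeR adjusted p = 0.445). Atf4 had 163, 137 and 142 CPM in DEHP livers, against 132, 141 and 124 CPM in control livers. These libraries overlapped and the log2 fold change was 0.15 ± 0.18 (edgeR adjusted p = 0.770), an interval of 2 SE from -0.21 to 0.51. Xbp1 and Atf6 had -0.09 ± 0.23 and -0.01 ± 0.23. Both were lowest in control replicate 1 and highest in control replicate 3, at 116 and 213 CPM for Xbp1 and 33.9 and 64.8 CPM for Atf6. The counts are per gene, so Xbp1 splicing and ATF4 translation, the steps at which these factors are switched on, were not measured.

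ATF4 targets had no shared direction. Atf5, a transcription factor translated under eIF2alpha phosphorylation, had 209, 145 and 203 CPM in DEHP livers, against 279, 215 and 428 CPM in control livers. All DEHP libraries lay below all controls, and the log2 fold change was -0.73 ± 0.25 (edgeR adjusted p = 0.273), or -0.39 without control replicate 3. The Atf5 row shares 512 bases with Il4i1 on the other strand, and the sources used here do not say whether counting used strand. Chac1, which degrades glutathione, had 2.53, 3.58 and 5.10 CPM in DEHP livers, against 1.49, 2.05 and 2.48 CPM in control livers. It was the single member with every DEHP library above every control, by a narrow margin at low counts of 21 to 60 a library, and its log2 fold change was 0.90 ± 0.47 (edgeR adjusted p = 0.434).

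Ddit3, which encodes the pro-apoptotic factor CHOP, had 18.4, 11.3 and 9.17 CPM in DEHP livers, against 14.2, 18.6 and 15.8 CPM in control livers. DEHP replicate 1 lay between the top controls, and the log2 fold change was -0.32 ± 0.28 (edgeR adjusted p = 0.672), an interval of 2 SE from -0.88 to 0.24. Without DEHP replicate 1 it was -0.63, and without DEHP replicate 3 it was -0.12. Its row shares 68 bases with Mars on the other strand. Trib3, a pseudokinase that damps ATF4 signalling, had 0.02 ± 0.26, and Ppp1r15a, the phosphatase subunit that removes the phosphate from eIF2alpha, 0.01 ± 0.28. Ppp1r15a was highest in DEHP replicate 1, at 34.7 CPM against 15.8 and 18.4 CPM in the other DEHP libraries, and its log2 fold change was -0.40 without that library.

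The enzymes of amino acid supply were scattered. Asns, asparagine synthetase, had 9.82, 13.4 and 10.7 CPM in DEHP livers, against 17.0, 4.27 and 2.57 CPM in control livers. Its DEHP libraries lay close together while its controls spanned 6.61-fold, and the log2 fold change was 0.50 ± 0.63 (edgeR adjusted p = 0.786), becoming 1.72 without control replicate 1. Aldh18a1, of proline synthesis, was also highest in control replicate 1, at 3.61 CPM against 0.948 and 0.797 CPM in the other controls and 1.72, 1.66 and 0.425 CPM in DEHP livers. Its log2 fold change was -0.51 ± 0.75 and became 0.53 without that control. Shmt2, the mitochondrial serine hydroxymethyltransferase, had -0.16 ± 0.20. Psat1, of serine synthesis, was below the filter with at most 1.03 CPM in any library and was not tested. Phgdh and Psat1, both of serine synthesis, thus had few counts in these livers.

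The 8 tested ATF4 targets had a median log2 fold change of -0.08, and the ER chaperone, folding and ERAD genes -0.41, a difference of 0.33. Per library, the mean deviation of ATF4 targets minus that of the ER list was 0.29, -0.18 and 0.47 in DEHP replicates 1 to 3, and 0.22, -0.15 and -0.65 in control replicates 1 to 3. The groups overlapped, with the lowest value in control replicate 3 and the highest in DEHP replicate 3, the same libraries that stood at the ends of the ER list. No test was made of these scores, since the members were chosen with results known.

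**Figure D4:**
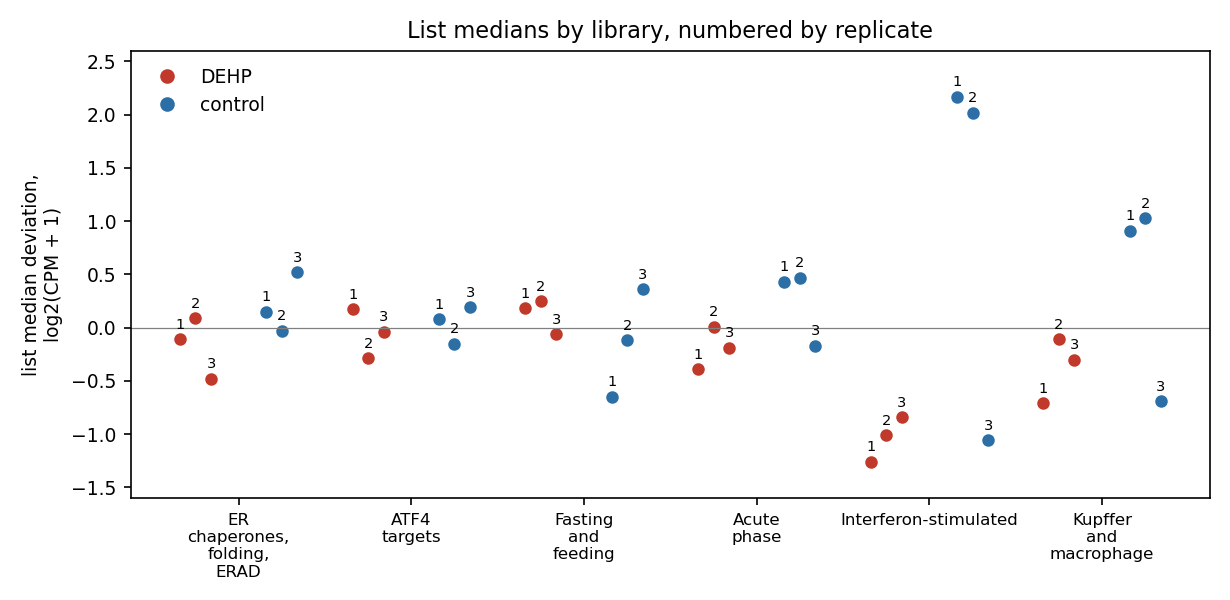
Median deviation of log2(CPM + 1) per library for the ER and ATF4 lists and 4 other lists, each point a library numbered by replicate (DEHP left of control within each list). Control replicate 3 is highest for the ER list, at 0.52, and for fasting and feeding genes, at 0.36, while control replicates 1 and 2 are highest for interferon-stimulated genes, at 2.17 and 2.02.

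Other gene groups also differed between libraries. Fasting and feeding genes had list medians of 0.18, 0.25 and -0.06 in DEHP replicates 1 to 3, and -0.65, -0.12 and 0.36 in control replicates 1 to 3. Control replicate 3, the highest library for the ER list, was highest here too, and also for hepatocyte markers at 0.22, cholangiocyte markers at 0.33 and sinusoidal endothelium markers at 0.45. DEHP replicate 3, lowest for the ER list, was lowest for hepatocyte markers as well, at -0.14. Sinusoidal endothelium markers, 10 of 10 with a row, summed to 236 to 432 CPM in DEHP livers and 403 to 504 CPM in control livers, with a median log2 fold change of -0.40 and 9 of 10 negative. Control replicate 1, lowest for fasting and feeding genes, was the lowest library for Herpud1, Dnajb9, Dnajc3, Edem1, Xbp1, Atf6 and Chac1. The same library was highest for Asns, Aldh18a1, Hsp90b1 and Ern1. Acute phase genes summed to 34795, 36803 and 31171 CPM in DEHP livers, against 62659, 59982 and 37043 CPM in control livers, and Kupffer cell and macrophage markers, 11 of 12 with a row, to 273 to 397 CPM in DEHP livers and 257 to 871 CPM in control livers. Both sums were high in control replicates 1 and 2, as were the interferon-stimulated genes. Hp and Hpx made up much of the acute phase sums. The median deviation of the acute phase list was 0.43 and 0.47 in those controls and -0.17 in control replicate 3. Some of its genes did not follow, such as Crp with 196, 360.2 and 334 CPM in control replicates 1 to 3. Plasma cell and B cell markers had a row for 12 of 12. They summed to 38.8 to 90.3 CPM in DEHP livers and 19 to 35.8 CPM in control livers. Igkc made up much of these sums, with 20.7, 41.9 and 43.7 CPM in DEHP livers and 19.8, 5.53 and 20.3 CPM in control livers. Ighm had 25.1 CPM in DEHP replicate 3 and at most 7.11 CPM in any other library. Only 7 of the 12 were tested, and for 6 of these the groups overlapped. Stellate cell markers, 10 of 10 with a row, summed to 241 to 307 CPM in DEHP livers and 357 to 544 CPM in control livers. Ecm1 made up much of these sums, with 121, 107 and 103 CPM in DEHP livers and 228, 165 and 294 CPM in control livers. For 8 of the 10 stellate markers the DEHP and control libraries overlapped, and the list's median log2 fold change was -0.31, with 9 negative. The part of these groups in the members' values was not tested, and fewer cells of a type and less RNA per cell cannot be told apart in bulk tissue. With control replicates 1 and 2 left out, the only control was replicate 3, the highest library for the ER list, and the list median was -0.72.

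Per length, the members covered a wide range of levels. Calr and Herpud1 were the highest, at 465 ± 74.7 and 514 ± 136 TPM in DEHP livers and 628 ± 97.5 and 569.8 ± 354 TPM in control livers (SD, n = 3). Hspa5 at 250 ± 39.8 TPM in DEHP livers and 356 ± 114 TPM in control livers, and Hsp90b1 at 248 ± 52.2 and 328 ± 42.2 TPM in the same order of groups, followed. Among ATF4 targets, Atf5 stood at 192 ± 41.8 TPM in DEHP livers and 321 ± 104 TPM in control livers, and Shmt2 at 191 ± 34.3 and 215 ± 18.9 TPM. The stress-induced members of the ATF4 branch were low, with Ddit3 at 15.1 ± 5.48 TPM in DEHP livers and 19.3 ± 3.69 TPM in control livers, and Chac1 at 4.59 ± 1.74 and 2.50 ± 0.636 TPM. Neighbours in this order, such as Calr and Herpud1 or Hspa5 and Hsp90b1, differed by less than their spread over libraries.

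**Figure D5:**
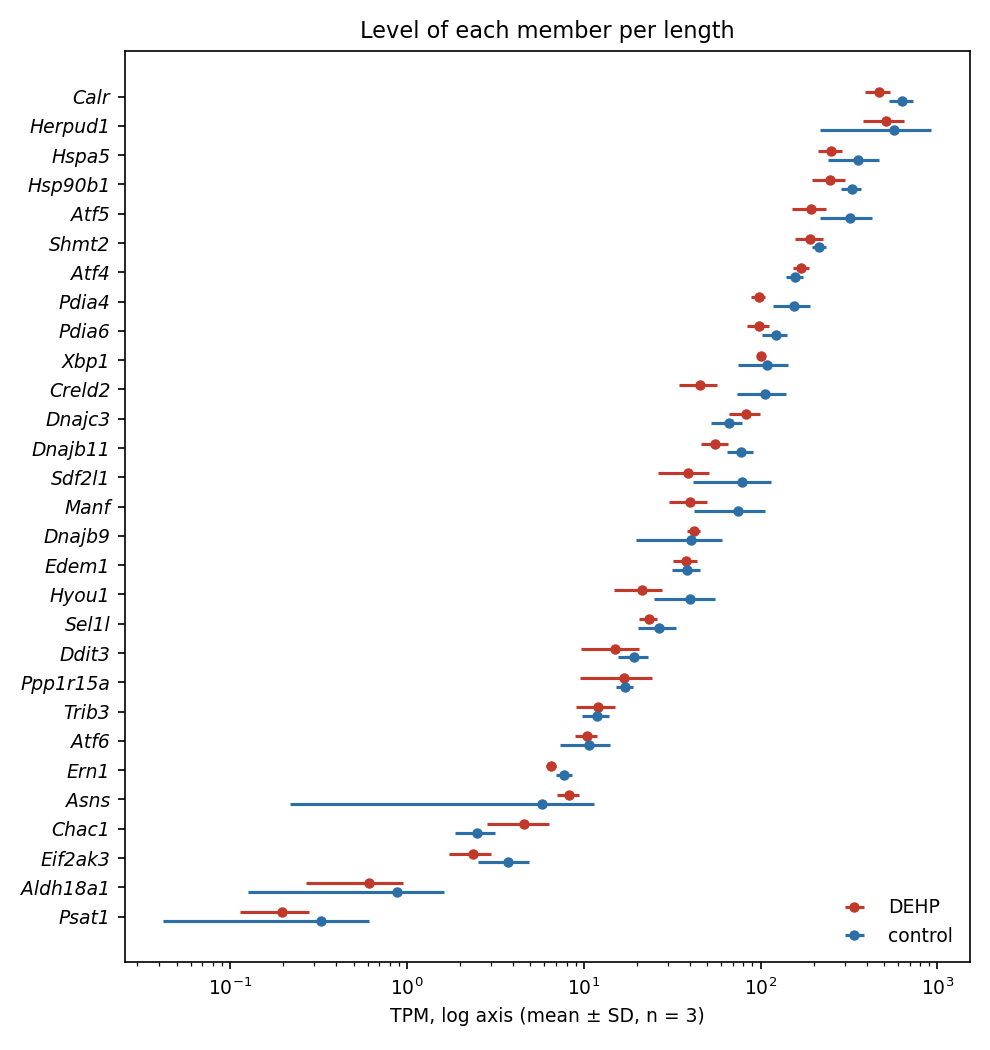
Mean level per length (TPM, log axis) of the 29 members with a row, in DEHP and control livers, with the SD over 3 libraries. Calr and Herpud1 lie at the top, other chaperones spread down to Hyou1 at 21.3 TPM in DEHP livers and 40.0 TPM in control livers, and Aldh18a1 and Psat1 lie under 1 TPM in both groups.

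Other genes of the pathway were taken from 7 lists of 143 genes, of which 131 were tested. None passed the threshold. Of them 11 had higher and 13 (9.92%) lower values with an unadjusted edgeR p under 0.05, against 6.11% and 6.97% of all genes. Their median log2 fold change was -0.03. Of 21 other ER folding enzymes and chaperones, 13 had negative values and the median was -0.13. P4hb, the classical protein disulfide isomerase, had 0.13 ± 0.19, Pdia3, a glycoprotein disulfide isomerase, -0.35 ± 0.21, and Qsox1, a sulfhydryl oxidase, -0.48 ± 0.22 (edgeR adjusted p = 0.813, 0.514 and 0.379). Of 19 other ERAD genes the median was 0.00. Os9, an ERAD lectin, had -0.34 ± 0.19, and Derl1, a membrane channel component, -0.10 ± 0.18. Genes of the ER translocon and of ER exit, 26 tested, had a median of 0.03, with Ssr3 at 0.07 ± 0.21, Rpn1 at -0.40 ± 0.21 and Sec62 at 0.32 ± 0.19. Of 9 genes of membrane-anchored factors and their proteases the median was -0.10, and Creb3l3, a liver factor cleaved in the manner of ATF6, had 0.16 ± 0.19, Nfe2l1 -0.10 ± 0.21 and Creb3 -0.23 ± 0.18. The translocon median lay on the other side of 0 from that of the ER member list, a difference that was not tested.

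On the side of the integrated stress response, 29 other ATF4 and CHOP targets had a median of -0.10, with 13 positive and 16 negative values. The most abundant were enzymes of the hepatocyte. Gpt2, an alanine aminotransferase, had 0.50 ± 0.23, Got1, an aspartate aminotransferase, 0.88 ± 0.38, and Cth, cystathionine gamma-lyase, 0.78 ± 0.31 (edgeR adjusted p = 0.378, 0.375 and 0.341). Of 13 genes for aminoacyl-tRNA synthetases and tRNA export 10 were negative, with a median of -0.07, and Aars had -0.51 ± 0.23, Eprs -0.07 ± 0.18 and Sars -0.03 ± 0.21. Wars, which interferon also induces and which was chosen once its values were known, had 19.9, 17.9 and 19.3 CPM in DEHP livers, against 70.6, 67.4 and 26.2 CPM in control livers. Its level was high in the same 2 controls as the interferon-stimulated genes, and the log2 fold change was -1.52 ± 0.32 (edgeR adjusted p = 0.143). Eif2ak2, which encodes the eIF2alpha kinase PKR and is itself an interferon-stimulated gene, showed the same 2 high controls, with 8.51, 8.99 and 7.31 CPM in DEHP livers, against 36.5, 30.2 and 8.51 CPM in control livers. This gene too was chosen once its values were known. Among 14 genes of eIF2 kinases, eIF2 and eIF2B the median was -0.01. Ppp1r15b, the constitutive counterpart of Ppp1r15a, had 0.21 ± 0.18, Eif2ak1, a heme-regulated kinase, 0.39 ± 0.18, and Eif2b4 -0.17 ± 0.19.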

How the data were processed

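Per the labels' protocols, libraries of polyadenylated mouse liver RNA were made with a kit that marks strand. The authors deposited raw read counts, 1 row per gene. The submitters' processing notes name GRCm38.p6, while the row identifiers are of the C57BL/6NJ strain, so no coordinates of the table are given, and promoter sequences and coordinates are RefSeq's on GRCm38.p6. The sources used here name no aligner, counter or strand setting. Rows without a gene name (1284 of 42380, 2.73% to 4.28% of counts) were left out. The test was edgeR 4.0.16's on R 4.3.3 (filterByExpr with a minimum count of 10, TMM, robust quasi-likelihood fit, no covariate, two-sided, Benjamini-Hochberg over 12468 genes, threshold 0.05). SE were derived from the F statistic. The fit was tested on simulated data. TPM were computed from counts and the deposited gene length. The common biological coefficient of variation was 27.8%, which with 3 libraries a group limits the precision. Within each group, libraries differed beyond sampling noise. All members are reported, and from each pathway list the 3 tested genes highest in mean CPM and any past the threshold, except 1 gene that is not reported here. Members and lists were chosen with earlier results of these data known. Alternatives were DESeq2 1.42.0, limma-voom (limma 3.58.1), RLE scaling, no low-count filter, a filter at a mean of 1 CPM, a non-robust fit, unnamed rows kept, a replicate block, and libraries left out. The second form of the ER stress response element was added after the files were seen. Protein sequences were not used here.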

Additional observations from a re-analysis of the deposited data

How the results depend on the processing

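No member passed the threshold with all libraries, and this held under RLE scaling, a mean of at least 1 CPM, limma-voom, a fit that was not robust, the replicate block, unnamed rows included, and each library left out. With no filter 5 members passed and with DESeq2 1, and the cause was not tested. Genes past the threshold over the whole table numbered 9, against 496 with no filter and 250 with DESeq2. With 1 library left out they numbered 5 to 400 (400 without control replicate 3, 19 without DEHP replicate 1, and 5 without DEHP replicate 3 or control replicate 1). Members at an unadjusted p of 0.05 numbered 6, against 11 without control replicates 1 and 2 and 1 to 8 with 1 library left out, with 1 without control replicate 3 and 2 without DEHP replicate 3. With the replicate block they numbered 3. Same-numbered libraries had correlations of -0.01, 0.09 and -0.04 of their deviations from the group means. These values show no sign that the numbers pair the libraries but cannot settle it, and the labels do not say. The median of the ER chaperone, folding and ERAD genes was -0.41 and ran from -0.57 to -0.27 with 1 library left out. With control replicate 3 as the only control it was -0.72. The ATF4 target median ran from -0.27 to 0.07 and the difference of the medians from 0.11 to 0.65 with 1 library left out.

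The sign of the log2 fold change turned for 9 members under some alternatives, most of them near 0, with Aldh18a1 at -0.51 as the exception. Atf6 had 0.00 with RLE scaling, 0.01 with no filter, 0.00 with a mean of at least 1 CPM or DESeq2, 0.03 with limma-voom and 0.02 with the replicate block. Herpud1 had 0.05 with limma-voom and 0.06 with the block, and Ppp1r15a -0.08 and -0.07. Without control replicates 1 and 2, which left 1 control library, Dnajb9 had -0.28, Edem1 -0.22, Trib3 -0.24, Ppp1r15a -0.19 and Aldh18a1 0.67. With 1 library left out, the ranges were -0.22 to 0.27 for Atf6, -0.47 to 0.53 for Herpud1, -0.40 to 0.23 for Ppp1r15a, -0.11 to 0.20 for Trib3, -0.13 to 0.18 for Edem1, -0.26 to 0.38 for Dnajb9, -0.83 to 0.53 for Aldh18a1, -0.30 to 0.09 for Sel1l and -0.31 to 0.11 for Xbp1. Low counts limit Chac1, Aldh18a1 and Psat1.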

Other observations

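Outside the members, 31 genes held the ER stress response element in their promoter, and 9 of them were tested, with a median log2 fold change of 0.09 and 4 negative values. The smallest unadjusted p was that of Acacb, an acetyl-CoA carboxylase, at 0.71 ± 0.21 (edgeR adjusted p = 0.207). Genes of the ER among them were Derl3, an ERAD membrane protein, at 0.84 ± 0.72 (edgeR adjusted p = 0.671), Syvn1, the ERAD ubiquitin ligase, at -0.88 ± 0.31 (edgeR adjusted p = 0.299), Canx, the lectin chaperone calnexin, at 0.24 ± 0.20 (0.642), and Alg12, a mannosyltransferase of the ER, at -0.72 ± 0.37 (0.422). The 6 members with the element had a median of -0.40 with 5 negative values, and the 7 genes of the ER list whose promoter was found without it -0.17, also with 5 negative values. Among those 7, Dnajb11 and Herpud1 held the second form of the element. Hyou1 and Manf, at -0.89 and -0.87, had no promoter entry and were in neither set. The genes of the sets were picked by sequence, and no test was made between the sets.

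A few other genes of the pathway lists stood out after their values were seen. Fkbp11, an ER prolyl isomerase, had 12.9, 11.5 and 8.24 CPM in DEHP livers, against 30.1, 18.6 and 16.7 CPM in control livers (log2 fold change -1.01 ± 0.28, edgeR adjusted p = 0.189). Impact, an inhibitor of the eIF2alpha kinase GCN2, had 23.9, 23.4 and 25.5 CPM in DEHP livers, against 16.1, 12.6 and 14.4 CPM in control livers (0.76 ± 0.21, adjusted p = 0.191). Gdf15, a secreted stress cytokine, had 12.7, 8.64 and 3.91 CPM in DEHP livers, against 83.3, 25.1 and 13.6 CPM in control livers (-2.28 ± 0.88, adjusted p = 0.382). In all 3 genes the groups did not overlap, as in 17.7% of all genes tested.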
